A study of Saccharomyces cerevisiae with 12 samples.

Results

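The subject is the peroxide dependence of the transcript changes that follow loss of ZTA1 in budding yeast: for each gene, the strain ratio under hydrogen peroxide (H2O2) minus the same ratio in untreated cells. A strain ratio is the log2 ratio of transcript abundance, ∆zta1 over wild type. The contrast used every array of the series, 12 of 12, selected by their titles, and covered 5594 genes. Its tested side held 3 pairs of a ∆zta1 and a wild-type (FY834α) culture exposed to 10 mM H2O2 for 30 min, and its other side held 3 untreated pairs of the same strains. All cultures had reached exponential growth in YPD, a glucose-rich medium, at 30 ºC. Both RNAs of a pair were hybridised together on 2 Agilent arrays with exchanged dyes, and these arrays were averaged into 1 replicate. The labels do not say how the deletion was made or how many clones carried it.

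ZTA1 (YBR046C) encodes zeta-crystallin, a quinone oxidoreductase that uses NADPH, and the title of the series describes it as a protein that binds AU-rich elements, sequences that mark some messenger RNAs for rapid decay. In yeast, H2O2 activates the transcription factors Yap1 and Skn7, which induce peroxidases, thioredoxins and glutathione enzymes, and Msn2 and Msn4, which induce the general stress genes. A gene that peroxide induces equally in both strains keeps its strain ratio, so its difference here is 0 however strong the induction. The response to peroxide itself was not measured, because treated and untreated RNA never shared an array, and the values are ratios that give no level of expression.

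ZTA1 was low in every ∆zta1 culture, with ratios of -4.96, -4.56 and -4.58 in the H2O2 pairs and -5.84, -4.32 and -5.73 in the untreated pairs. Untreated replicate 2 stood apart. Its SD from the mean of the other 5 pairs was 0.149, against 0.0637 to 0.0895 for each other pair set against its own 5. These SDs cover the 5579 genes whose mean ratio did not pass against 0 in either treatment. It was the lowest or highest of the 6 pairs in 47.1% of genes, where the other pairs held that place in 23.0% to 39.3%. Results are therefore given with and without it. The mating-type markers, in ratio only, had median differences of -0.059 for 7 a-cell genes and -0.12 for 4 alpha-cell genes (-0.068 and -0.011 without untreated replicate 2).

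The central question was whether the deletion changes other transcripts, or the same ones to another extent, when cells face peroxide. No gene passed for the difference at a limma adjusted p under 0.05, which is 0% of genes tested, and the smallest adjusted p was 0.999. At an unadjusted limma p under 0.05 there were 71 genes (1.27%), 25 with a higher ratio under H2O2 and 46 with a lower one. The 3 H2O2 pairs lay wholly above the 3 untreated pairs in 149 genes (2.66%) and wholly below them in 161 (2.88%), 310 in all (5.54%). An exact permutation test of 3 against 3 cannot give a two-sided p below 0.1. If the pairs were exchangeable between treatments, a share of 0.1 of genes would be free of overlap, so 5.54% is no excess. The 1.27% at an unadjusted limma p under 0.05 likewise lies below a share of 0.05.

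The intervals show which sizes of difference remain possible. The 95% limma interval lay within 1.5-fold of no difference in 5537 genes (99%) and within 2-fold in 5580. It reached beyond 2-fold in 14 genes. The median difference was -0.0017, the middle 90% of genes lay between -0.094 and 0.086, and the median interval reached 0.11 to either side of its estimate.

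Differences over 0.25 in size were found in 51 genes, and in 48 of them untreated replicate 2 lay outside the other 5 pairs. SNZ1, of vitamin B6 synthesis, had the largest difference of all, 0.67, from ratios of 0.12, 0.028 and 0.040 in the H2O2 pairs and 0.095, -1.94 and 0.033 in the untreated pairs. A single untreated pair was low, and the other 5 pairs overlapped. Only 7 of the 51 genes kept a difference over 0.25 when that pair was left out: ZTA1, its neighbours GIP1 and FMP23, YCL021W-A, YGL262W, SRX1 and GRS2. GRS2, a glycyl-tRNA synthetase singled out after its values were seen, had ratios of -0.80, 0.015 and -0.97 in the H2O2 pairs and -0.054, 0.058 and -0.30 in the untreated pairs. H2O2 replicate 2 fell among the untreated pairs, and the interval of the difference (-0.48 ± 0.22 SE) was -0.99 to 0.022.

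**Figure D1:**
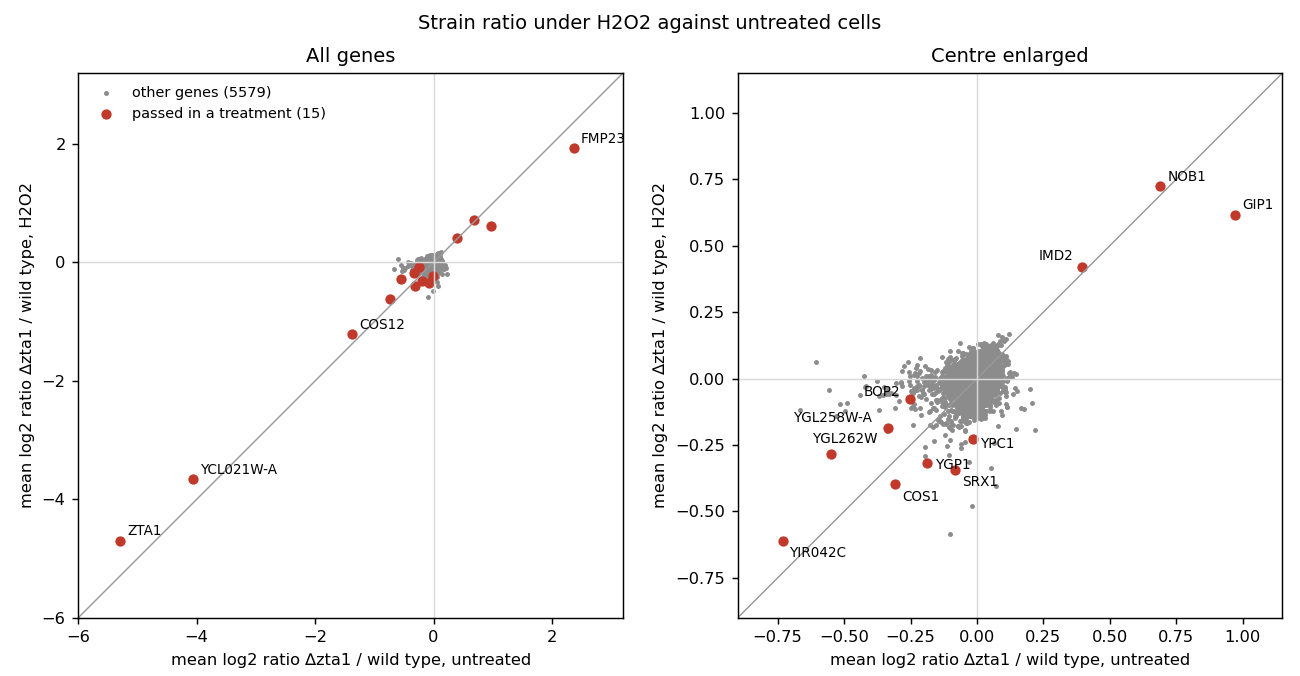
Mean log2 ratio of ∆zta1 to wild type in the 3 H2O2 pairs (vertical) against the 3 untreated pairs (horizontal) for 5594 genes, with the centre enlarged on the right. The 15 genes that passed in at least 1 treatment are red and named, and the grey line marks equal ratios. Of the 8 genes that passed in both treatments, NOB1 and IMD2 lie near the line and GIP1 lies below it.

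The genes with the clearest strain ratios were largely shared. Against a ratio of 0, 12 genes passed under H2O2 (0.215%) and 11 in untreated cells (0.197%), 15 in all. Of these, 8 passed in both treatments, 66.7% of the H2O2 list and 72.7% of the untreated list. Both lists come from 1 fit with a shared estimate of spread. Across all genes the mean ratios of the treatments had a Pearson correlation of 0.82, which the strongest genes set. Over the 5579 genes that passed in neither treatment it was 0.30 (Spearman 0.36), or 0.56 without untreated replicate 2. Between single pairs of these genes the correlation had a median of 0.21 for 9 comparisons across treatments (-0.068 to 0.41). It was 0.11 within H2O2 (3 comparisons, 0.0064 to 0.25) and -0.036 within untreated cells (3 comparisons, -0.21 to 0.16). By this measure pairs of the same treatment were not more alike than pairs of different treatments. These correlations are descriptions across genes, which are not replicates, and all pairs share the array design.

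ZTA1 had the ratio farthest from 0, and both genes directly beside it on chromosome II passed in either treatment. GIP1 (YBR045C), which encodes a regulator of protein phosphatase used in spore formation, had ratios of 0.60, 0.55 and 0.70 in the H2O2 pairs and 1.03, 0.83 and 1.06 in the untreated pairs. Every H2O2 pair lay below every untreated pair, and all 6 lay above 0. The difference was -0.36 ± 0.069 (SE, interval -0.51 to -0.20, limma adjusted p = 0.999), and GIP1 had the smallest unadjusted p of all genes. It was negative in either dye orientation, -0.45 on the arrays with ∆zta1 in Cy5 and -0.26 on those with it in Cy3.

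FMP23 (YBR047W), the neighbour on the other side, encodes a mitochondrial protein. Its ratios were 2.11, 1.79 and 1.89 in the H2O2 pairs and 2.89, 1.42 and 2.80 in the untreated pairs. Untreated replicate 2 was the lowest of all 6 pairs, and the other untreated pairs were the highest. The difference with all pairs was -0.44 ± 0.33 (interval -1.20 to 0.32). ZTA1 showed the mirror image, with untreated replicate 2 the least negative pair and the other untreated pairs the most negative. Its difference was 0.60 ± 0.35 (interval -0.20 to 1.39). In H2O2 replicate 2 the 2 arrays disagreed. With ∆zta1 in Cy5 and in Cy3, FMP23 had 2.45 and 1.12 there, and ZTA1 had -5.91 and -3.21. ZTA1 is the deleted gene and signal over background is unknown, so whether its difference reflects transcript abundance was not tested.

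Without untreated replicate 2, exactly these 3 genes passed for the difference in limma: FMP23 (-0.91, adjusted p = 0.0051), ZTA1 (1.09, adjusted p = 0.0051) and GIP1 (-0.43, adjusted p = 0.0423). Each ratio then lay closer to 0 under H2O2. In no other fit that was run did a gene pass for the difference. Each pair was left out in turn, and untreated replicate 2 was singled out for its values. The adjusted p-values above do not account for that choice. In FMP23 and ZTA1 the omitted pair was the only untreated one on the far side of the H2O2 pairs. The next protein-coding genes outward had small differences. TCM62 (YBR044C), a mitochondrial protein, differed by 0.015 (interval -0.075 to 0.10), and RPS11B (YBR048W), a ribosomal protein, by -0.064 (interval -0.18 to 0.049).

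**Figure D2:**
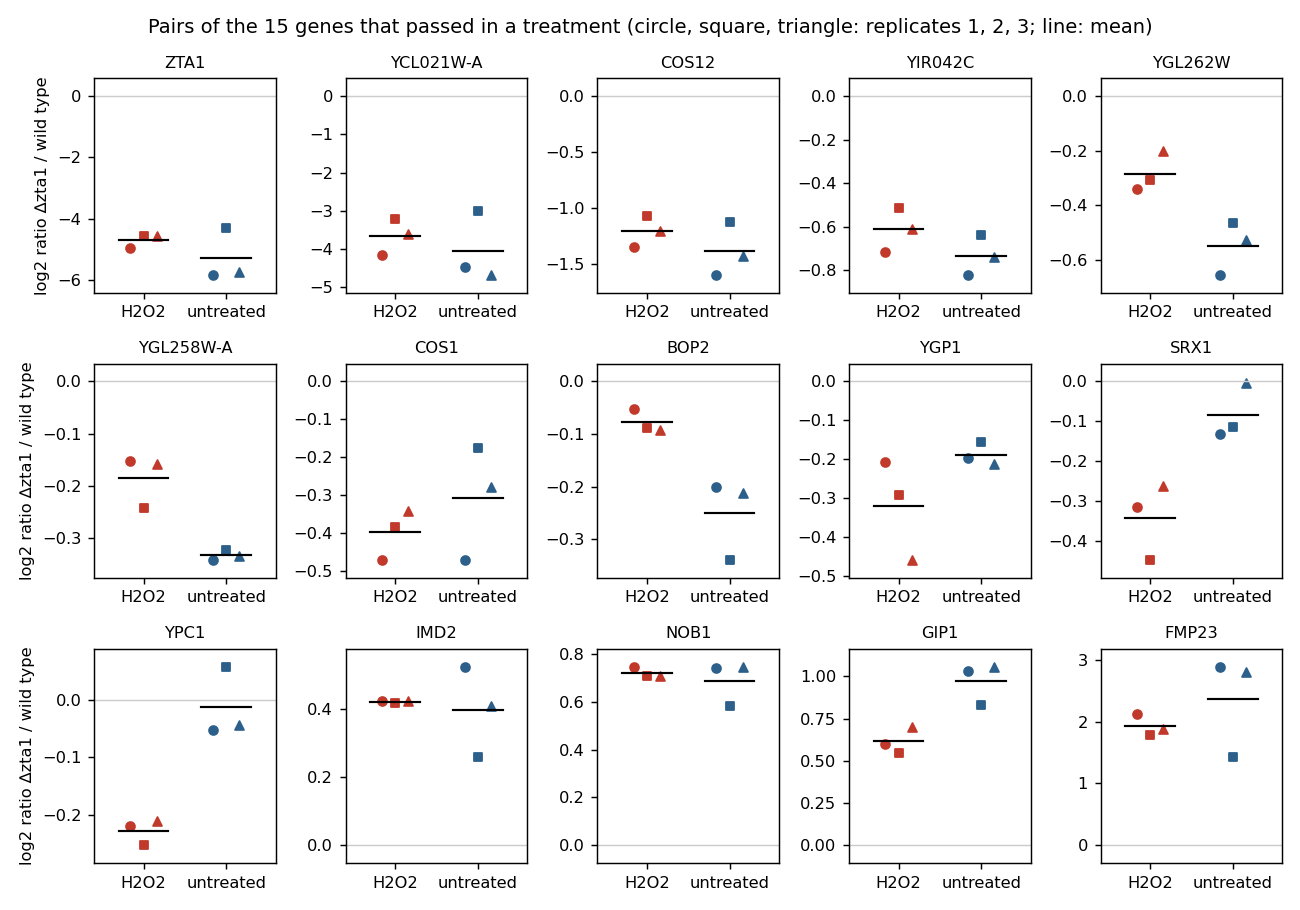
Log2 ratio of ∆zta1 to wild type in each pair (circle, square and triangle for replicates 1, 2 and 3) of the 15 genes that passed in at least 1 treatment, with H2O2 left of untreated in each panel, a line at each mean, and a vertical scale that differs between panels. GIP1, SRX1, YPC1, YGL262W, YGL258W-A and BOP2 separate the treatments. FMP23, ZTA1 and YCL021W-A have untreated replicate 2 on the far side of the H2O2 pairs.

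The other genes that passed in both treatments did so with overlapping pairs. YCL021W-A, an uncharacterised gene, had ratios of -4.17, -3.21 and -3.61 in the H2O2 pairs and -4.48, -3.003 and -4.68 in the untreated pairs. The lone high untreated value was that of replicate 2, and the difference was 0.40 ± 0.41 (interval -0.54 to 1.33; 0.92 without that pair). COS12 (YGL263W), a COS protein that helps to sort membrane proteins to the vacuole, had ratios of -1.35, -1.07 and -1.21 in the H2O2 pairs and -1.60, -1.13 and -1.43 in the untreated pairs. These ranges overlap, with a difference of 0.17 (interval -0.087 to 0.43) that was 0.30 without untreated replicate 2, 0.067 without untreated replicate 1 and 0.11 without H2O2 replicate 2. YIR042C, uncharacterised, had -0.71, -0.51 and -0.61 in the H2O2 pairs and -0.82, -0.64 and -0.74 in the untreated pairs, which overlap as well (difference 0.12, interval -0.028 to 0.27, and 0.071 to 0.17 with 1 pair left out).

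The genes that rose in ∆zta1 in both treatments, apart from the neighbours, gave nearly equal ratios. NOB1 (YOR056C), an endonuclease that matures ribosomal RNA, had 0.75, 0.71 and 0.71 in the H2O2 pairs and 0.74, 0.58 and 0.75 in the untreated pairs. Its difference of 0.033 had an interval of -0.087 to 0.15. IMD2 (YHR216W), which catalyses the first step from IMP towards GTP, had 0.42 in each H2O2 pair and 0.52, 0.26 and 0.41 in the untreated pairs. The H2O2 values lay inside the untreated range, and the difference of 0.023 had an interval of -0.12 to 0.17.

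Expressed as a share, the mean log2 ratio under H2O2 was 63.5% of the untreated one for GIP1, 81.4% for FMP23, 83.5% for YIR042C, 87.4% for COS12, 88.8% for ZTA1, 90.2% for YCL021W-A, 105% for NOB1 and 106% for IMD2. The median was 88.1%, and 6 of the 8 lay closer to 0 under H2O2. Without untreated replicate 2 the shares ran from 59.1% to 97.3%, with a median of 79.9%, and all 8 lay closer to 0 under H2O2. Among all 5594 genes, 40.0% had the ratio of smaller size under H2O2 with all 6 pairs. That share was not computed without untreated replicate 2, so the count of all 8 has no background to stand beside. Of these 8 genes only GIP1, FMP23 and ZTA1 passed for the difference, and only in the fit without untreated replicate 2. The H2O2 means include H2O2 replicate 2, whose arrays disagreed beyond FMP23 and ZTA1. With ∆zta1 in Cy5 and in Cy3, YCL021W-A had -3.96 and -2.46 there, and COS12 had -1.33 and -0.82.

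Genes that passed in untreated cells alone had ratios closer to 0 under H2O2. YGL262W, an uncharacterised gene beside COS12, had ratios of -0.34, -0.31 and -0.20 in the H2O2 pairs and -0.65, -0.47 and -0.53 in the untreated pairs. The groups do not overlap, and the difference was 0.27 ± 0.060 (interval 0.13 to 0.40). YGL258W-A, of the same end of chromosome VII, had -0.15, -0.24 and -0.16 in the H2O2 pairs and -0.34, -0.32 and -0.33 in the untreated pairs. Here too the groups do not overlap, but the difference of 0.15 came mostly from 1 dye orientation, 0.050 on the Cy5 arrays and 0.25 on the Cy3 arrays. BOP2 (YLR267W), of unknown function, had -0.053, -0.089 and -0.092 in the H2O2 pairs and -0.20, -0.34 and -0.21 in the untreated pairs, again without overlap (difference 0.17 ± 0.049, interval 0.061 to 0.28). A gene chosen because it passed in 1 treatment is likely to differ in this direction, so these counts support nothing further.

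The genes between YGL262W and YGL258W-A on chromosome VII had smaller differences. PAU11, a cell wall gene of the seripauperin family, differed by 0.047, and YGL260W, uncharacterised, by -0.070. YPS5, an aspartic protease gene, had a difference of 0.074 (interval -0.077 to 0.23). VEL1, a gene induced by zinc shortage that lies just beyond YGL258W-A, had one of 0.037 (interval -0.084 to 0.16).

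Under H2O2 alone 4 genes passed, all lower in ∆zta1. SRX1 (YKL086W) encodes sulfiredoxin, which repairs peroxiredoxins inactivated by peroxide. Its ratios were -0.32, -0.45 and -0.26 in the H2O2 pairs and -0.13, -0.11 and -0.0048 in the untreated pairs. The groups do not overlap, and the difference was -0.26 ± 0.059 (interval -0.39 to -0.12, limma adjusted p = 0.999). It was -0.27 without untreated replicate 2, and -0.21 on the Cy5 arrays and -0.31 on the Cy3 arrays.

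YPC1 (YBR183W), an alkaline ceramidase of the endoplasmic reticulum, had ratios of -0.22, -0.25 and -0.21 in the H2O2 pairs and -0.052, 0.057 and -0.044 in the untreated pairs. The H2O2 pairs were tightly grouped below all untreated pairs, with a difference of -0.21 ± 0.045 (interval -0.32 to -0.11, limma adjusted p = 0.999). It was -0.21 in either dye orientation. COS1 (YNL336W), a relative of COS12, overlapped between treatments, with -0.47, -0.38 and -0.34 in the H2O2 pairs and -0.47, -0.17 and -0.28 in the untreated pairs (difference -0.090, interval -0.26 to 0.080, and -0.17 to -0.023 with 1 pair left out). YGP1 (YNL160W), a secreted glycoprotein of nutrient limitation, had -0.21, -0.29 and -0.46 in the H2O2 pairs and -0.20, -0.16 and -0.21 in the untreated pairs. Its groups met at the first H2O2 pair, and the difference was -0.13 (interval -0.28 to 0.014), or -0.061 without H2O2 replicate 3. Passing under H2O2 and not in untreated cells is thus no sign of a difference for COS1 and YGP1. SRX1 and YPC1 were chosen in the same way, which makes a difference in this direction likely. The intervals of single genes are not adjusted for the 5594 genes tested.

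**Figure D3:**
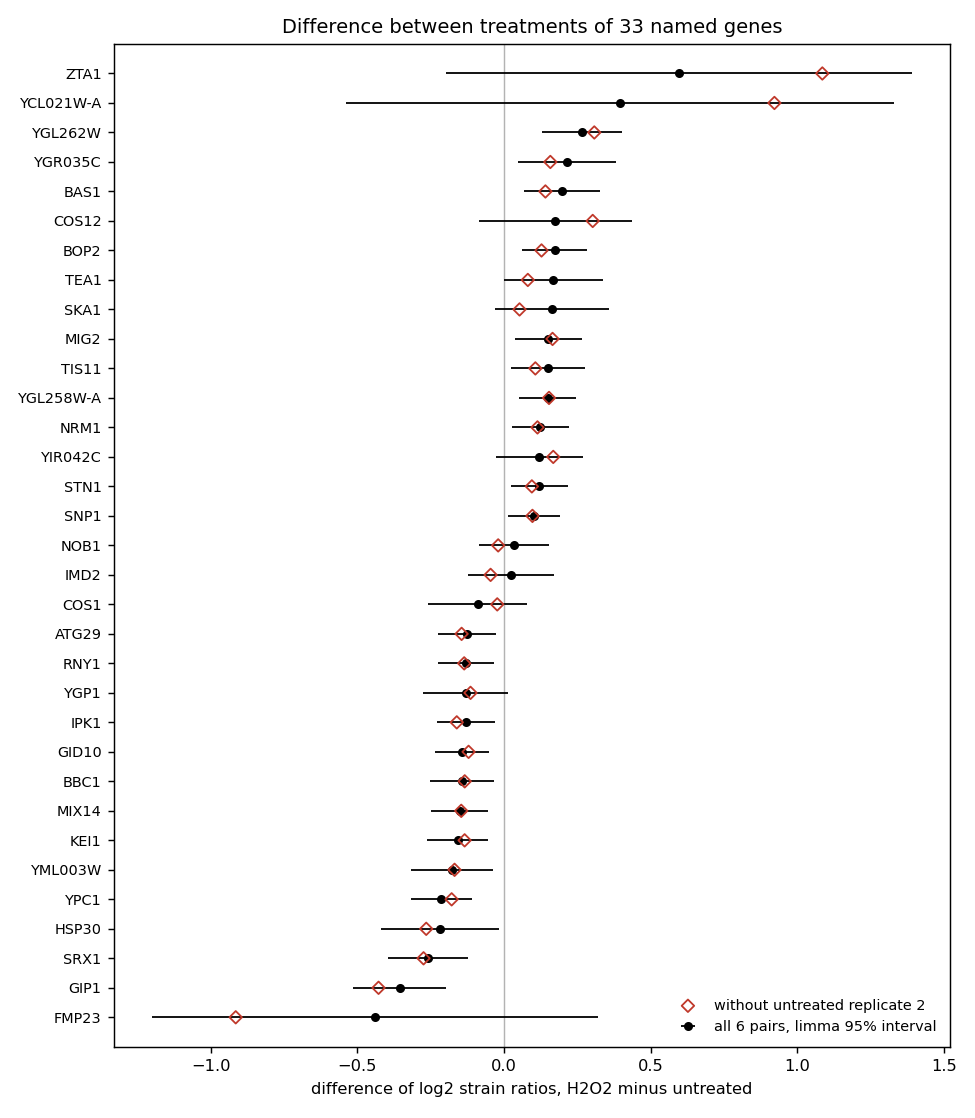
Difference of the log2 strain ratios, H2O2 minus untreated (horizontal), for the 33 named genes outside the gene lists, as the limma estimate from all 6 pairs with its 95% interval (black) and the estimate without untreated replicate 2 (open red diamonds). ZTA1, YCL021W-A and FMP23 have the widest intervals and the greatest shifts, and most other genes lie within 0.25 of 0.

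Outside those 15 genes, the smallest unadjusted p-values with a lower ratio under H2O2 belonged to genes of varied roles, none of which passed (limma adjusted p = 0.999 for each). MIX14 (YDR031W), a protein of the mitochondrial intermembrane space, had ratios of -0.13, -0.17 and -0.067 in the H2O2 pairs and 0.028, 0.040 and 0.018 in the untreated pairs. GID10 (YGR066C), which selects substrates for the GID ubiquitin ligase, had -0.083, -0.091 and -0.071 in the H2O2 pairs and 0.022, 0.11 and 0.057 in the untreated pairs. In both genes the treatments lay on opposite sides of 0, with differences of -0.15 and -0.14. Over all genes, 27 (0.483%) had 3 H2O2 ratios below 0 and 3 untreated ratios above 0. KEI1, a subunit of inositol phosphorylceramide synthase (-0.16), and RNY1, the vacuolar ribonuclease (-0.13), showed the same arrangement. IPK1, a kinase of inositol phosphates (-0.13), BBC1, of actin patches (-0.14), and ATG29, of autophagy (-0.13), also had H2O2 pairs below all untreated pairs. For RNY1 and IPK1 the dye orientations differed, with -0.059 on Cy5 and -0.20 on Cy3 arrays for RNY1, and -0.20 on Cy5 and -0.057 on Cy3 arrays for IPK1. HSP30, a heat shock protein of the plasma membrane, had -0.22, or -0.11 without untreated replicate 3. YML003W, uncharacterised, had -0.18, or -0.11 without H2O2 replicate 2.

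None of the genes with a higher ratio under H2O2 passed either. BAS1 (YKR099W), the activator of purine and histidine synthesis genes, had ratios of 0.098, 0.11 and 0.19 in the H2O2 pairs and -0.00051, -0.17 and -0.015 in the untreated pairs. The treatments did not overlap, and the difference was 0.20 ± 0.057 (interval 0.067 to 0.33). MIG2 (YGL209W), a repressor of glucose-repressed genes, had 0.13, 0.13 and 0.023 in the H2O2 pairs and -0.022, -0.028 and -0.12 in the untreated pairs, also without overlap (difference 0.15). Both genes were among 24 (0.429% of all) with 3 H2O2 ratios above 0 and 3 untreated ratios below 0. NRM1, a corepressor of G1 transcription (0.12), STN1, of telomere capping (0.12), and SNP1, the yeast U1-70K splicing protein (0.10), also had H2O2 pairs above all untreated pairs. YGR035C, uncharacterised, had a difference of 0.22 with overlapping pairs. TEA1, an activator of Ty1 transcription, had 0.17 and SKA1, a partner of the Ski complex in RNA decay, had 0.16. Both rested on untreated replicate 2 and were 0.081 and 0.053 without it.

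Gene groups are described by their counts and medians, set beside those of all genes, of which 48.6% had a difference above 0. There were 32 lists with 1045 measured genes, and no member of any list passed for the difference with all 6 pairs. The share of all genes at an unadjusted p under 0.05 was 1.27%.

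Among 41 measured oxidative stress genes under Yap1 and Skn7, 13 had a higher and 28 a lower ratio under H2O2, with a median of -0.019 (-0.011 without untreated replicate 2). Only SRX1 and GPX1 had an unadjusted p under 0.05. GPX1, a glutathione peroxidase, had -0.042, -0.19 and -0.028 in the H2O2 pairs and -0.0051, 0.098 and 0.035 in the untreated pairs, a difference of -0.13. Several central enzymes had intervals that exclude a 1.5-fold difference, as in 99% of all genes. CTT1, the cytosolic catalase, had -0.0068 (interval -0.13 to 0.12), TRR1, thioredoxin reductase, -0.011 (interval -0.16 to 0.14), and GLR1, glutathione reductase, -0.0052 (interval -0.11 to 0.098).

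In some members of this group the H2O2 pairs lay farther apart than the untreated ones. TSA1, the main cytosolic peroxiredoxin, had ratios of 0.27, -0.072 and -0.19 in the H2O2 pairs and -0.065, 0.068 and -0.010 in the untreated pairs. SOD1, the copper and zinc superoxide dismutase, had 0.26, -0.17 and -0.21 in the H2O2 pairs and -0.047, 0.011 and -0.064 in the untreated pairs. In both genes H2O2 replicate 1 was high and the other H2O2 pairs were low, so the mean differences of 0.0050 and -0.0099 hide pairs of opposite sign. PRX1, the mitochondrial peroxiredoxin, had the same order, with 0.098, -0.23 and -0.32 in the H2O2 pairs and -0.21, 0.0087 and -0.047 in the untreated pairs. The SD was larger under H2O2 in 61.0% of the oxidative stress genes, against 52.6% of all genes. Across the lists this share ran from 0% (arginine biosynthesis) to 86.7% (PAU, DAN and TIR cell wall genes). It was 72.9% for cytosolic ribosomal protein genes, so a wider spread under H2O2 was not particular to the oxidative stress genes.

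The 42 genes under Msn2 and Msn4 leaned the same way, 11 higher and 31 lower, with a median of -0.049 (-0.041 without untreated replicate 2). HSP30 and PRB1, the vacuolar protease B (-0.16), had an unadjusted p under 0.05. The list medians of single pairs were 0.00030, -0.085 and -0.21 under H2O2 and -0.083, -0.043 and 0.0030 in untreated cells. These ranges overlap, and H2O2 replicate 3 was the lowest. The SD was larger under H2O2 in 59.5% of these genes, with a median SD of 0.132 under H2O2 against 0.0810 in untreated cells. That share too lay inside the range of the other lists.

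Relatives of ZTA1 and other quinone reductases gave 8 higher and 18 lower of 26, with a median of -0.021 (-0.0084 without untreated replicate 2) and no unadjusted p under 0.05. The list of AU-rich element binding and messenger RNA decay factors, which bears on the title of the series, had 18 higher and 28 lower of 46 and a median of -0.0060 (0.0029 without untreated replicate 2). TIS11 (YLR136C), a zinc finger protein that directs the decay of AU-rich messenger RNAs when iron is short, was the 1 member with an unadjusted p under 0.05. Its ratios were -0.092, -0.034 and 0.048 in the H2O2 pairs and -0.11, -0.26 and -0.16 in the untreated pairs, with all H2O2 pairs above the untreated ones (difference 0.15 ± 0.056, interval 0.022 to 0.28). CTH1, its paralogue, had 0.0084 and PUB1, which binds poly(U) and AU-rich RNA, had -0.066. The iron uptake genes under Aft1, which also include TIS11, were 24 higher and 3 lower of 27, with a median of 0.040 that was 0.0048 without untreated replicate 2.

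**Figure D4:**
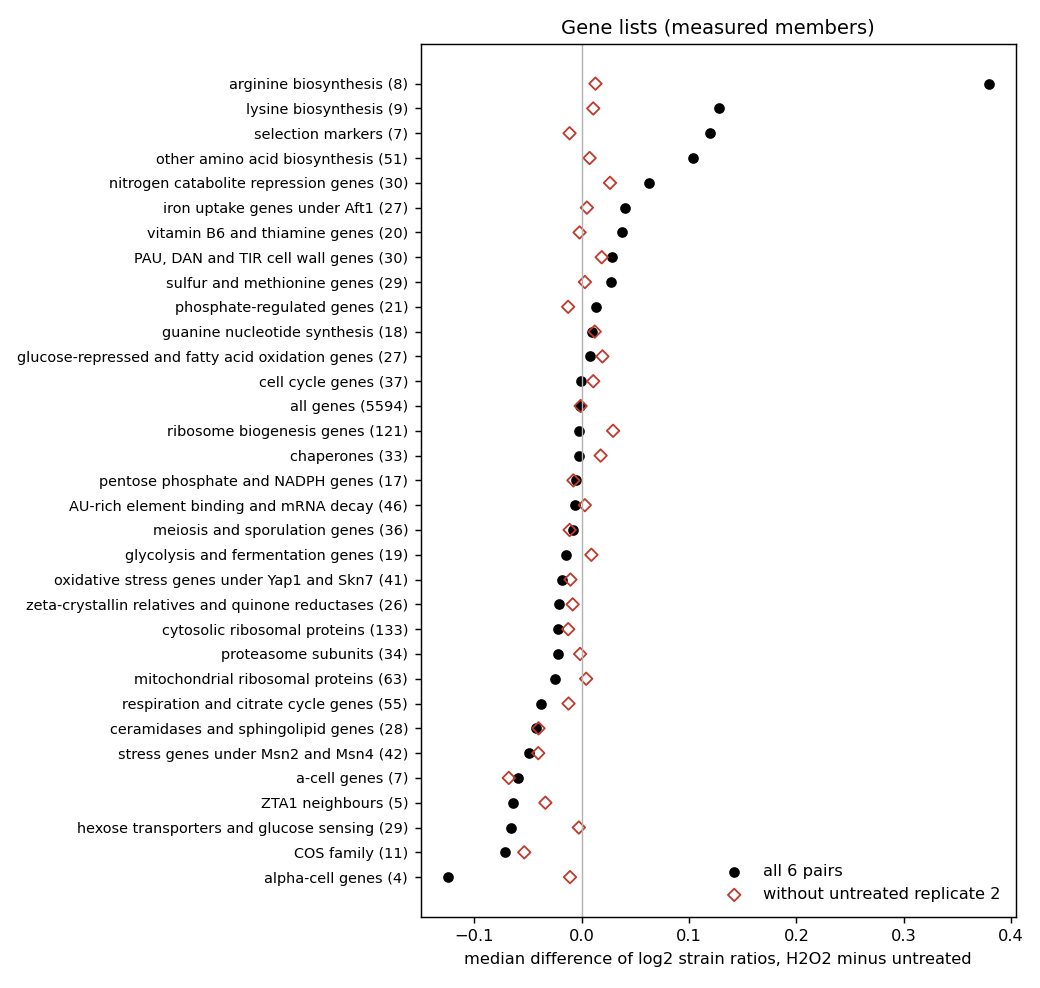
Median over members of the difference of log2 strain ratios, H2O2 minus untreated, for each of 32 gene lists and for all genes, with the number measured in brackets, from all 6 pairs (black) and without untreated replicate 2 (open red diamonds). Arginine biosynthesis has a median of 0.38 with all pairs and 0.013 without that pair.

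Arginine synthesis had the largest median of the 32 lists, and it came from 1 pair. All 8 arginine biosynthesis genes had a higher ratio under H2O2, with a median of 0.38, as did all 9 lysine genes (0.13) and 42 of 51 other amino acid genes (0.10). Without untreated replicate 2 the medians were 0.013, 0.011 and 0.0073. ARG1, argininosuccinate synthetase, had ratios of 0.30, -0.19 and -0.46 in the H2O2 pairs and 0.31, -1.90 and -0.41 in the untreated pairs. ARG4, the lyase of the next step, had 0.034, -0.15 and -0.31 in the H2O2 pairs and -0.0073, -1.25 and -0.33 in the untreated pairs. The low value in both genes was that of untreated replicate 2, and without it the treatments overlapped. LYS2, of lysine synthesis, repeated this, with 0.20, 0.033 and -0.048 in the H2O2 pairs and 0.0039, -0.75 and -0.032 in the untreated pairs. Nitrogen catabolite repression genes had a median of 0.062 (24 of 30 higher), or 0.026 without that pair. DUR3, the urea transporter, was their 1 member with an unadjusted p under 0.05 (0.13).

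Respiration and hexose transporter genes had medians below 0 with all pairs. Of 55 respiration and citrate cycle genes, 14 were higher and 41 lower, with a median of -0.038 (-0.012 without untreated replicate 2). HAP4, the activating subunit of the respiratory gene regulator, had ratios of 0.073, -0.19 and -0.15 in the H2O2 pairs and 0.057, 0.49 and 0.081 in the untreated pairs. The difference of -0.30 carried the high untreated replicate 2. QCR8, of respiratory complex III (-0.12), and CIT2, the peroxisomal citrate synthase (-0.16), also had an unadjusted p under 0.05. Hexose transporter and glucose sensing genes had a median of -0.066 with all pairs and -0.0027 without untreated replicate 2. HXT7, a high-affinity hexose transporter, had -0.14, -0.47 and -0.61 in the H2O2 pairs and -0.66, 1.04 and -0.17 in the untreated pairs, where replicate 2 alone was high. The glucose-repressed and fatty acid oxidation genes lay on the other side of 0, with 15 higher and 12 lower of 27 and a median of 0.0079 (0.019 without untreated replicate 2).

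**Figure D5:**
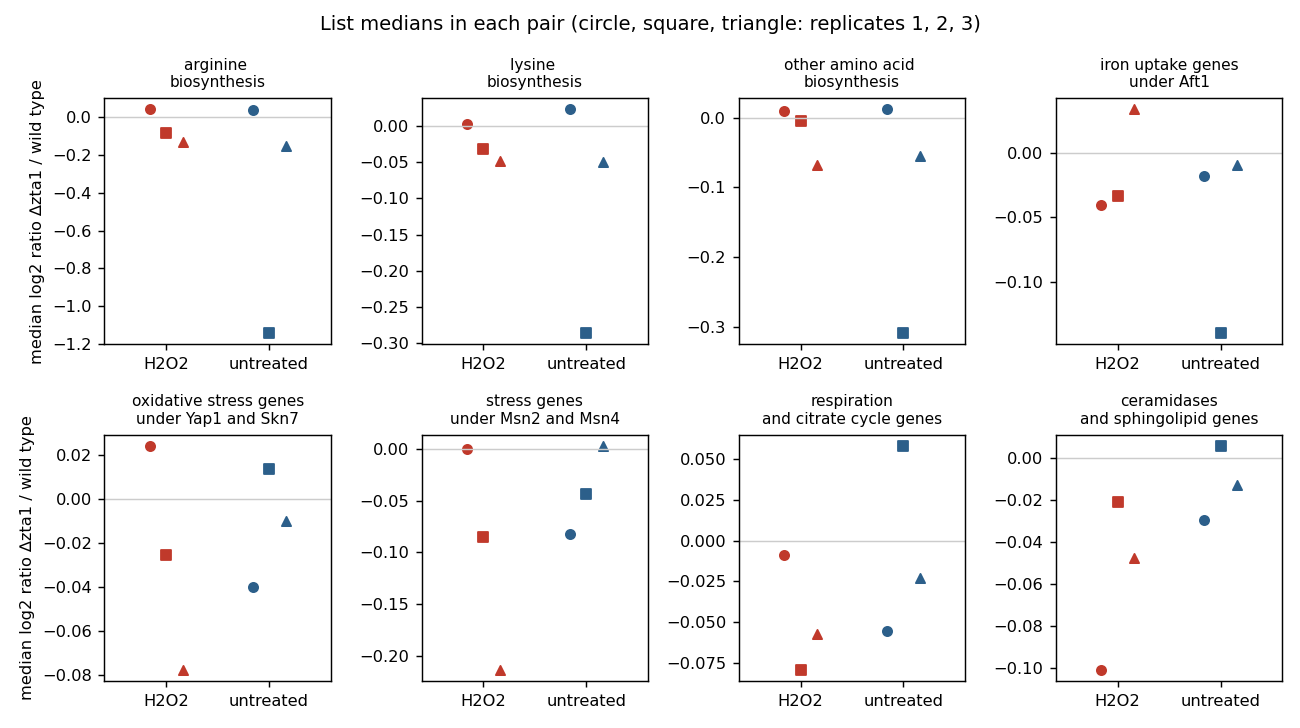
Median log2 ratio of ∆zta1 to wild type over the members of 8 gene lists in each pair (circle, square and triangle for replicates 1, 2 and 3), with H2O2 left of untreated and a vertical scale that differs between panels. In the amino acid lists untreated replicate 2 alone is low, and in the sphingolipid list the treatments overlap only through H2O2 replicate 2 and untreated replicate 1.

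Ceramidase and sphingolipid genes kept their median without the divergent pair. Of 28 genes, 7 were higher and 21 lower, with a median of -0.042 (-0.040 without untreated replicate 2). Besides YPC1, 2 members had an unadjusted p under 0.05, both lower. LIP1, a subunit of ceramide synthase, had ratios of -0.12, -0.096 and -0.14 in the H2O2 pairs and -0.027, 0.097 and -0.031 in the untreated pairs, without overlap (difference -0.13, interval -0.24 to -0.024). YDC1, the other alkaline ceramidase, had -0.16, -0.070 and -0.20 in the H2O2 pairs and -0.11, 0.080 and 0.049 in the untreated pairs, which overlap (difference -0.15). The list medians of single pairs were -0.10, -0.021 and -0.047 under H2O2 and -0.029, 0.0060 and -0.013 in untreated cells, which also overlap.

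Signs of the difference were mixed in the COS family, and no member had an unadjusted limma p under 0.05. COS12 had a difference of 0.17, while the other 10 measured members were all below 0, with a family median of -0.071 (-0.054 without untreated replicate 2). Members of this family are close in sequence and may share signal on the arrays. The translation machinery had small medians. For 133 cytosolic ribosomal protein genes (35 higher, 98 lower) the median was -0.022, or -0.013 without untreated replicate 2. The sign turned without that pair for 63 mitochondrial ribosomal protein genes (-0.025 with all pairs, 0.0041 without it) and for 121 ribosome biogenesis genes (-0.0022 with all pairs, 0.029 without it). The pair medians of ribosome biogenesis were -0.038, 0.040 and 0.12 under H2O2 and 0.043, 0.065 and -0.021 in untreated cells, which overlap. Chaperone genes (33) had a median of -0.0022 and cell cycle genes (37) one of -0.00046, or 0.018 and 0.011 without untreated replicate 2. Pentose phosphate and NADPH genes (17) had -0.0053, or -0.0078 without it.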

How the data were processed

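Per the labels' protocols, total RNA from ∆zta1 and wild-type cultures was labelled with Cy5 or Cy3. The authors deposited 1 log2 ratio per probe and array. Limma is named in the submitters' processing notes, without a version, and the normalization is not given in the sources used here. Base and direction (∆zta1 over wild type, swapped arrays included) were taken from the titles and from ZTA1. Array medians lay between -0.0172 and 0.0165. Signal over background is unknown, and precision rests on how many arrays there are. Of 6256 probes, 5620 had 1 gene, 636 had none and stayed unnamed, and probes of 25 genes were averaged.

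Dye swaps were paired by title, since 1 description in either treatment gives another replicate number. With limma 3.58.1 (R 4.3.3), lmFit and eBayes were fitted to 6 pair means with 1 mean per treatment (4 residual degrees of freedom), two-sided, Benjamini-Hochberg over 5594 genes. The script was tested on simulated data. The labels call the replicates biological.

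Named were ZTA1, genes passing in a treatment or in any alternative fit, the 10 smallest p-values and 5 largest differences without overlap per direction, and up to 4 members per list, or any of the oxidative stress, arginine and neighbour lists. GRS2, HXT7, CTH1, PUB1 and the chromosome VII neighbours were added after their values were seen. Members and lists were chosen with earlier results of these data known. Names came from the platform annotation and a RefSeq table. The deviations of same-numbered pairs across treatments correlated by -0.014, 0.031 and -0.27, and those of differently numbered pairs by -0.14 to 0.26. Such values cannot show whether equal numbers share a batch. The main fit did not use the numbers. Alternatives were each pair left out, either dye alone, 12 arrays with a pair block, a replicate block, robust moderation, quality weights, centring, scaling and probe-level fits.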

Additional observations from a re-analysis of the deposited data

Results flagged for a closer look

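In 12 of the 189 genes that the naming rule picks, every H2O2 pair lay on one side of 0 and every untreated pair on the other. With the 3 H2O2 ratios above 0 these were BAS1 (difference 0.20), MIG2 (0.15), DUR3 (0.13), STN1 (0.12) and SNP1 (0.10). With the 3 H2O2 ratios below 0 they were KEI1 (-0.16), MIX14 (-0.15), HXT13 (-0.16), GID10 (-0.14), RNY1 (-0.13), SPS2 (-0.10) and LHS1 (-0.085). HXT13 encodes a hexose transporter family member, SPS2 a sporulation protein and LHS1 a chaperone of the endoplasmic reticulum. The difference between treatments was tested in limma and passed in none of them (adjusted p = 0.999). Over all genes the first arrangement occurred in 24 (0.429%) and the second in 27 (0.483%). Many of the 189 genes were picked by the p or size of this same difference. Their count is therefore raised by the choice and cannot be set against the shares of all genes.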

How the results depend on the processing

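No gene passed for the difference in any setting except the fit without untreated replicate 2, so leaving out 1 pair at a time gave 0 to 3 genes. Genes passing under H2O2 numbered 12 with all pairs and 6 to 13 with 1 pair left out, and 929 with Cy5 arrays alone or 420 with Cy3 arrays alone. Genes passing in untreated cells numbered 11, and 906 or 562 with Cy5 or Cy3 arrays alone, where the dye effect does not cancel. With a replicate block 0 genes passed for the difference, 10 under H2O2 and 10 in untreated cells, and 78 differences had an unadjusted p under 0.05, against 71. Among the 33 genes named outside the gene lists, the difference changed sign only in NOB1 and IMD2. NOB1 had -0.020 to 0.062 with 1 pair left out. IMD2 had -0.046 to 0.086 with 1 pair left out, -0.00027 on Cy3 arrays and -0.0027 with weights per pair. The cause was not tested. Sign changes were not counted for genes named only as list members, and some of these differed in sign between dyes. On Cy5 and Cy3 arrays SOD1 had 0.052 and -0.072, TRR1 0.010 and -0.031, and TSA1 -0.013 and 0.023. FMP23, ZTA1 and GIP1 crossed the threshold without untreated replicate 2. The median difference of a list moved by more than the spread between pairs in 14 combinations of list and setting and by less in 306.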
